A study of Mus musculus with 4 samples.

Results

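Described here are 9 genes that guide thymocytes from the cortex of the thymus to its exit, namely the chemokine receptor genes Cxcr4, Ccr9, Ccr7, Ccr4 and Cxcr3, the sphingosine 1-phosphate receptor gene S1pr1, the transcription factor gene Klf2, and the integrin genes Itga4 and Itgb7. They were chosen by name as migration genes, and every probe set that the platform annotation ties to one of these symbols alone was taken. That gave 17 probe sets for the 9 genes, of 18193 genes named on the arrays. Ccr9 and Itga4 had 5 probe sets each and the other 7 genes had 1 each. The study compared 2 mice hypomorphic for Atg16l1, whose allele has reduced function, with 2 control mice, which the labels call wild-type. All mice were 7 weeks old, independent of one another, with 1 male and 1 female listed per group and no treatment named, and RNA of unsorted thymocytes went onto 1 Affymetrix array per animal. The labels name neither the strain, nor the way the allele was made, nor the sex behind each array.

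Developing T cells move through the thymus by reading gradients of chemokines and lipids. CXCR4 and CCR9, the receptors for CXCL12 and CCL25, act mainly on immature cells in the cortex, while CCR7 and CCR4 draw positively selected cells to ligands in the medulla. KLF2 then switches on S1PR1, which senses sphingosine 1-phosphate and leads mature cells out into the blood, and integrins hold the moving cells to other cells and to matrix.

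Signals are linear intensities per probe set and serve to compare arrays, not one probe set with another. Median signals were 38.4 and 27.4 on hypomorph arrays 1 and 2 and 23.5 and 27.4 on control arrays 1 and 2, so arrays were centred on a common median of log2 signals, and every log2 change is hypomorph minus control on that centred scale. The targeted gene Atg16l1, part of the autophagy machinery, had signals of 108 and 70.8 in hypomorphs and 184 and 241 in controls on its brighter probe set. It fell to 33.6% of the control level (log2 change -1.57 ± 0.18 SE, adjusted p 0.0142 in limma), but it was not called without control replicate 1 (adjusted p 0.0751) or control replicate 2 (0.0893). Even after centring the tested probe sets had a median log2 change of 0.18 (0.011 with quantile normalization and 0.51 without centring), and changes are therefore also given relative to that median. It rose with brightness, being 0.099 when dim probe sets were kept and 0.22 when only the brightest were tested. Rag1 and Dntt, which act in the rearrangement of T cell receptor genes and mark immature thymocytes, were bright on all 4 arrays, at signals of 5620 or more and 4106 or more. Xist, the RNA of the inactive X chromosome, was bright on replicate 2 of both groups (3434 in the hypomorph and 2915 in the control for probe set 1436936_s_at) and dim on replicate 1 of both (47.7 in the hypomorph and 29.2 in the control). The Y-linked gene Eif2s3y (1417210_at) was the reverse, at 703 and 461 on replicate 1 of hypomorph and control and 4.52 and 3.43 on replicate 2. By these signals replicate 1 was male and replicate 2 female in both groups. With 2 arrays against 2 an exact permutation test cannot give a two-sided p below 0.333, and the p-values come from limma's variance model, shared across probe sets.

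None of the 9 genes passed the threshold. Of the 17 probe sets 16 passed the filter on dim signals, and 0 of these 16 had an adjusted p under 0.05 in limma, against 0.0622% of all 22519 tested probe sets (14, with 11 or 0.0488% higher and 3 or 0.0133% lower in hypomorphs). Their adjusted p-values in limma lay between 0.208 and 0.880. An unadjusted p under 0.05 was found for 3 of the 16, those of Cxcr4, Cxcr3 and 1 Ccr9 probe set, near the share of 16.1% among all tested probe sets. Of the 3, 2 were higher and 1 lower in hypomorphs, where 14.9% of all were higher and 1.19% lower. Centred signals of the groups did not overlap for 6 of the 16, 3 higher and 3 lower in hypomorphs, where 50.8% of all tested probe sets did not overlap (43.8% higher and 7.04% lower). Relative to the median of all tested probe sets 5 of the 16 were above and 11 below, against 50.0% above among all by construction. The median log2 change of the 16 was 0.017, which is -0.17 relative to that of all tested probe sets. In a sample of unsorted cells, fewer cells of a type and less RNA per cell cannot be told apart.

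**Figure D1:**
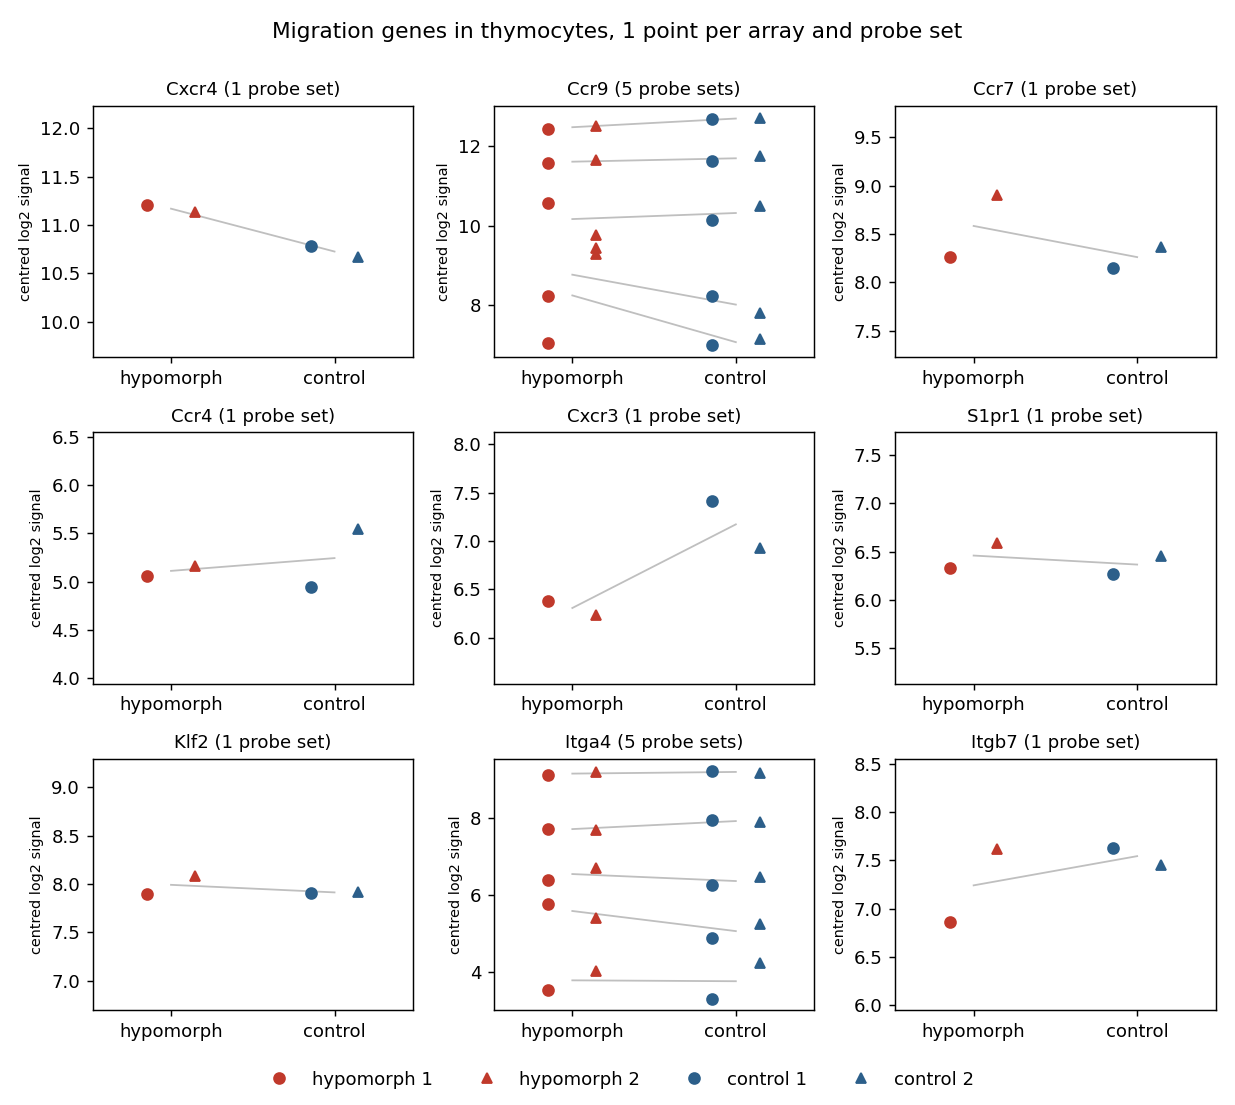
Centred log2 signal (vertical axis) of all 17 probe sets of the 9 migration genes, with the 2 hypomorph arrays left (red) and the 2 control arrays right (blue), circles for replicate 1, triangles for replicate 2, and grey lines joining the group means of a probe set. Cxcr4 was higher on both hypomorph arrays than on both control arrays, Cxcr3 was lower on both, and the Ccr9 probe sets 1442758_at and 1436065_at were high on hypomorph replicate 2.

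The 250 bases before the start of Cxcr4, Cxcr3 and Klf2 are shown, Cxcr4 and Cxcr3 because they had the lowest p-values of the 16 probe sets and opposite directions, Klf2 because its product acts directly upstream of S1pr1. They were taken from RefSeq (GRCm38.p6), at chr1:128592300-128592549 on the minus strand for Cxcr4, chrX:101734148-101734397 on the minus strand for Cxcr3 and chr8:72318812-72319061 on the plus strand for Klf2, each written 5′ to 3′ on the strand of its gene. Capitals mark matches, on either strand, to the GC box GGGCGG, the NRF1 core GCATGC, the forkhead core TGTTTA or the MEF2 core, which is CTA and TAG with any 4 bases between.
Cxcr4: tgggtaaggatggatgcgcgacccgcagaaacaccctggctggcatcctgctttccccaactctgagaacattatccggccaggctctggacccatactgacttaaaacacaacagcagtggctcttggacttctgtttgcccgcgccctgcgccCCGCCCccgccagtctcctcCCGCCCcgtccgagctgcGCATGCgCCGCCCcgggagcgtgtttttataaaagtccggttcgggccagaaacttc
Cxcr3: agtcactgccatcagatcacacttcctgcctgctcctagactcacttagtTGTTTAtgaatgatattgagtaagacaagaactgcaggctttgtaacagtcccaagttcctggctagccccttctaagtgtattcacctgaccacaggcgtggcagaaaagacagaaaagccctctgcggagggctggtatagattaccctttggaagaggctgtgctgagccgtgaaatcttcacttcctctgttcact
Klf2: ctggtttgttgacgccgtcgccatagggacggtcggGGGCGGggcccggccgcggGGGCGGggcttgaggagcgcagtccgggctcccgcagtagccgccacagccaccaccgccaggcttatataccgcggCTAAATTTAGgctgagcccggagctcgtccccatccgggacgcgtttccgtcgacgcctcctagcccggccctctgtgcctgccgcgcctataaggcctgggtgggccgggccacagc
The Cxcr4 window has 61.2% G and C and holds 3 GC boxes, a motif found in 32.7% of 32851 windows of the same length, and an NRF1 core, found in 6.70%. The Cxcr3 window has 48% G and C and holds a forkhead core, found in 12.0% of windows. The Klf2 window has 71.2% G and C, 2 GC boxes and, from 118 to 109 bases before the start, the MEF2 core match CTAAATTTAG, of a motif found in 3.20% of windows. Windows were at hand for 7 of the 9 genes, and the CACCC box bound by KLF factors, which occurs in 52.0% of all windows, was found in 6 of these 7 and not in that of Cxcr3. The T-box site GGTGTGA, found in 3.33% of windows, was matched in that of Itga4 alone among the 7. A match describes these letters and shows no binding.

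Cxcr4 encodes the receptor for CXCL12, which keeps early thymocytes in the cortex and aids their passage through beta selection. Its probe set (1448710_at) gave 3091 and 2149 in hypomorph thymocytes, against 1467 and 1552 in control thymocytes. After centring the log2 signals were 11.20 and 11.14 in hypomorphs and 10.79 and 10.67 in controls. Both hypomorph arrays were above both control arrays, and the replicates of each group lay closer together than the groups did. The log2 change was 0.44 ± 0.13 (SE, 95% confidence interval 0.15 to 0.74), or 1.36-fold, with an unadjusted p of 0.00674 and an adjusted p of 0.242 in limma. Relative to the median of tested probe sets the log2 change was 0.26, and that median lay inside the confidence interval. Over 13 alternatives the relative value stayed between 0.16 and 0.37, the adjusted p in limma lay between 0.127 and 0.719, and Cxcr4 was never called. Those that change only the centring, the variance model or the replicate block cannot move the relative value.

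Cxcr4 lies on chromosome 1, as Atg16l1 does, while the other 8 genes lie on other chromosomes. In the gene order of RefSeq GRCm38.p6 it stands 146 places after Atg16l1, of 1057 genes ordered on that chromosome. Mgat5, an enzyme that branches N-linked glycans and 1 of the called genes (log2 change 1.31, adjusted p 0.0233 in limma), stands 10 places before Cxcr4. Ramp1, 25 places after Atg16l1, and Ctse, 25 places after Cxcr4, also had a called probe set. Their brightest probe sets were not called (adjusted p 0.364 and 0.591 in limma). Among the genes within 10 places of Cxcr4, 9 were tested, with a median log2 change of 0.22, which is 0.04 above that of all tested probe sets. Of these 9, which include Mgat5, 5 were above the median of all tested probe sets. An unadjusted p under 0.05 was found for 2, Mgat5 itself and Rab3gap1, where 16.1% of all tested probe sets had one.

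Ccr9 encodes the receptor for CCL25, a chemokine made by the thymic epithelium and the small intestine, and is abundant in double-positive thymocytes. Its 5 probe sets did not move together. The brightest (1427419_x_at) had signals of 7175 and 5544 in hypomorphs and 5369 and 6350 in controls, with a log2 change of -0.22 ± 0.15 (SE, 95% confidence interval -0.55 to 0.12, adjusted p 0.470 in limma). After centring both hypomorph arrays were below both control arrays on it. The next brightest (1421920_a_at) had signals of 3955 and 3042 in hypomorphs and 2625 and 3269 in controls, with a log2 change of -0.085 ± 0.14 and an adjusted p of 0.770 in limma. The probe set 1421919_a_at had signals of 1991 and 824 in hypomorphs and 942 and 1364 in controls, with a log2 change of -0.15 ± 0.23 and an adjusted p of 0.747 in limma. On these brighter 3 the centred mean was lower in hypomorphs, whereas without centring their log2 changes were 0.11, 0.24 and 0.18 in the same order. On 1421919_a_at the hypomorph arrays lay on either side of the control arrays.

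The remaining Ccr9 probe sets were higher on average in hypomorphs, and that difference rested on 1 animal. For 1442758_at the signals were 396 and 599 in hypomorphs and 247 and 213 in controls, a log2 change of 0.75 ± 0.28 (SE, 95% confidence interval 0.14 to 1.36) with an unadjusted p of 0.0209 and an adjusted p of 0.268 in limma. For 1436065_at they were 173 and 665 in hypomorphs and 105 and 134 in controls, a log2 change of 1.17 ± 0.53 with an adjusted p of 0.311 in limma. Hypomorph replicate 2 was far above the other arrays on both, while hypomorph replicate 1 was near the controls after centring. Without hypomorph replicate 1 the log2 changes of 1442758_at and 1436065_at were 1.27 and 2.36, and without hypomorph replicate 2 they were 0.22 and -0.026. Each of these fits leaves 1 hypomorph array and so measures no spread among hypomorphs. As a share of the signal of the brightest Ccr9 probe set on the same array, which needs no centring, 1436065_at stood at 2.40% and 12.0% in hypomorphs and 1.96% and 2.11% in controls. The share for 1442758_at was 5.52% and 10.8% in hypomorphs and 4.61% and 3.36% in controls. Which Ccr9 transcripts each probe set reads is not given in the files, so a change of the whole gene cannot be read from either.

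**Figure D2:**
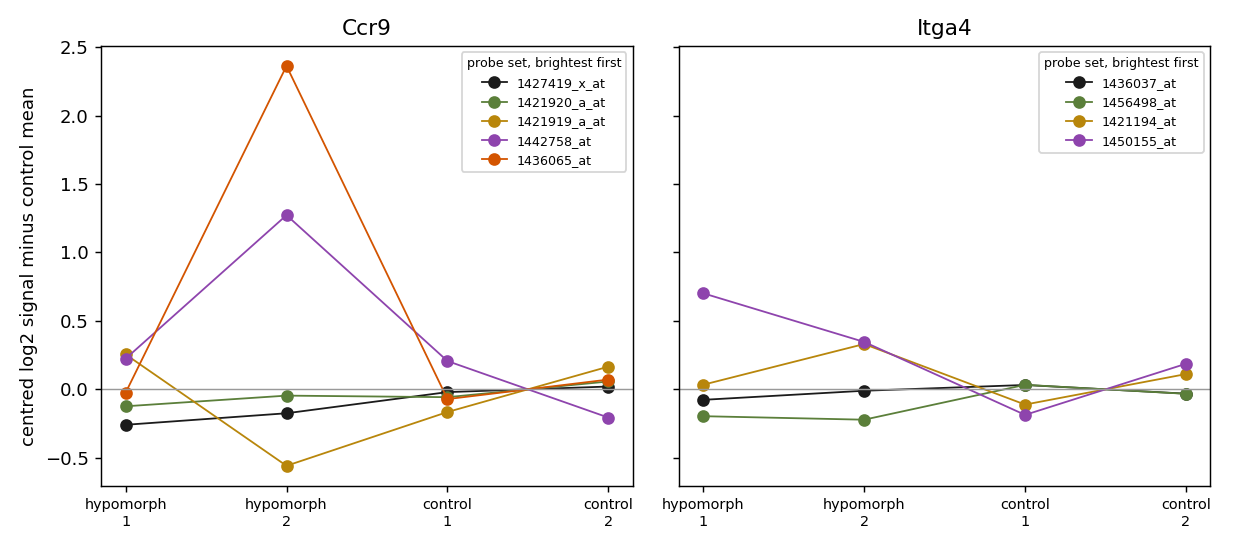
Centred log2 signal of each tested probe set minus its control mean (vertical axis, log2 units) on the 4 arrays, hypomorph arrays left and control arrays right, for Ccr9 (left panel, 5 probe sets) and Itga4 (right panel, 4 probe sets), with a line per probe set. The Ccr9 probe sets 1436065_at and 1442758_at peaked on hypomorph replicate 2 alone, where 1421919_a_at was at its lowest.

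Ccr7 and Ccr4 encode receptors that act on cells after positive selection, CCR7 for CCL19 and CCL21 and CCR4 for CCL17 and CCL22. Ccr7 (1423466_at) had signals of 401 and 456 in hypomorphs and 235 and 315 in controls. After centring, the groups overlapped, with hypomorph replicate 2 highest. The log2 change was 0.32 ± 0.20 (SE, 95% confidence interval -0.12 to 0.76, adjusted p 0.418 in limma), and without hypomorph replicate 2 it was 0.0026. Ccr4 (1421655_a_at) had signals of 41.4 and 32.0 in hypomorphs and 23.3 and 42.3 in controls, with the hypomorph arrays between the control arrays after centring. Its log2 change was -0.13 ± 0.34 (SE, 95% confidence interval -0.87 to 0.61, adjusted p 0.855 in limma), an interval wide enough to hold differences in either direction.

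Cxcr3, the receptor for CXCL9, CXCL10 and CXCL11, is carried by activated, memory and innate-like T cells more than by immature thymocytes. Its probe set (1449925_at) had the lowest p of the 16, with signals of 107 and 69.7 in hypomorphs, against 139 and 115 in controls. After centring the log2 signals were 6.38 and 6.23 in hypomorphs and 7.41 and 6.93 in controls. Both hypomorph arrays were below both control arrays, with or without centring. The log2 change was -0.87 ± 0.22 (SE, 95% confidence interval -1.35 to -0.38), a 1.82-fold lower signal, with an unadjusted p of 0.00252 and an adjusted p of 0.208 in limma. Relative to the median of tested probe sets the log2 change was -1.05. It lay between -1.33 and -0.76 over the 12 alternatives that tested Cxcr3, some of which cannot move it, as for Cxcr4. The adjusted p in limma lay between 0.0790 and 0.656 over these 12, and Cxcr3 was never called. The log2 change of Cxcr4 exceeded that of Cxcr3 by 1.32 on the scale of ratios within an array, which needs no centring. That ratio of Cxcr4 to Cxcr3 signal was 28.9 and 30.8 on hypomorph arrays and 10.5 and 13.6 on control arrays, a pair chosen after the values were seen.

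Markers of other cells that can carry Cxcr3 mostly lay below the median of all tested probe sets as well. Of 8 tested markers of regulatory and innate-like T cells (10 listed), 7 were below the median of all tested probe sets, with a median log2 change of -0.30, and 0 were called in limma (0 higher and 1 lower at an unadjusted p under 0.05). Among all tested probe sets 14.9% were higher and 1.19% lower at that threshold. Summed centred signals of the list were 1846 and 2228 in hypomorphs and 2310 and 2052 in controls, so the sums overlapped. Ikzf2 alone made up most of each sum, so this overlap mainly reflects 1 bright gene and not the list as a whole. Nkg7, a cytotoxic granule gene of this list, had signals of 189 and 110 in hypomorphs and 158 and 172 in controls (log2 change -0.52, adjusted p 0.255 in limma). Ikzf2, a transcription factor gene of regulatory T cells, had signals of 1554 and 1463 in hypomorphs and 1190 and 1244 in controls (log2 change -0.019, adjusted p 0.959 in limma). Foxp3, the defining factor of regulatory T cells, had signals of 29.2 and 18.8 in hypomorphs and 22.4 and 23.2 in controls and did not pass the filter. The part of these cells in the Cxcr3 difference was not tested, nor was the part of brightness in the position of the list below the median.

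S1pr1 and Klf2, the exit receptor and the factor that switches it on, had no difference beyond the spread between arrays. S1pr1 (1423571_at) had signals of 103 and 90.2 in hypomorphs and 62.2 and 82.0 in controls, and the groups overlapped after centring. Its log2 change was 0.093 ± 0.22 (SE, adjusted p 0.846 in limma), and the 95% confidence interval allowed folds of 0.758 to 1.5. Klf2 (1448890_at) had signals of 311 and 257 in hypomorphs and 197 and 229 in controls, again with overlap after centring. Its log2 change was 0.078 ± 0.15 (SE, adjusted p 0.806 in limma), with folds of 0.836 to 1.33 inside the 95% confidence interval. Both changes were slightly below the median of tested probe sets, at -0.089 for S1pr1 and -0.10 for Klf2, and that of S1pr1 turned to 0.016 without hypomorph replicate 1.

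Genes that act around S1pr1 and Klf2 also had no call in limma. Of 11 genes of the axis of KLF2 and FOXO1 that were tested, 0 were called, 0 had an unadjusted p under 0.05, and 5 were above the median of all tested probe sets (median log2 change 0.17). Foxo1, the factor upstream of Klf2, had signals of 486 and 394 in hypomorphs and 269 and 354 in controls (log2 change 0.17, adjusted p 0.548 in limma). Il7r, the receptor gene for IL-7 and a target of FOXO1, had signals of 919 and 807 in hypomorphs and 567 and 595 in controls (log2 change 0.24, adjusted p 0.402). Mapk7 and Map2k5, which encode the kinase ERK5 and its activator, had log2 changes of 0.69 (adjusted p 0.344) and 0.30 (adjusted p 0.340). For Mapk7 the signals were 119 and 86.6 in hypomorphs and 28.5 and 83.2 in controls, with control replicate 1 alone far below the rest. Of 6 tested genes for sphingosine 1-phosphate signalling and turnover, 0 were called, 2 had an unadjusted p under 0.05, both higher, and 5 were above the median of all tested probe sets (median log2 change 0.28). At that unadjusted threshold 14.9% of all tested probe sets were higher. Cd69, which holds S1PR1 off the cell surface, had signals of 1222 and 893 in hypomorphs and 592 and 747 in controls (log2 change 0.32, unadjusted p 0.0302, adjusted p 0.284 in limma). Sgpp1, a phosphatase that acts on sphingosine 1-phosphate, had signals of 678 and 482 in hypomorphs and 331 and 351 in controls (log2 change 0.41, unadjusted p 0.0109, adjusted p 0.247). S1pr4, another receptor of the family, had a log2 change of 0.27 (adjusted p 0.404).

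Itga4 and Itgb7 encode the chains of the integrin alpha 4 beta 7, which binds VCAM-1, MAdCAM-1 and fibronectin. The brightest Itga4 probe set (1436037_at) had signals of 733 and 559 in hypomorphs and 500.5 and 551 in controls, with a log2 change of -0.044 ± 0.13 (SE, 95% confidence interval -0.33 to 0.24, adjusted p 0.880 in limma). The next (1456498_at) had signals of 276 and 197 in hypomorphs and 205 and 225 in controls, with a log2 change of -0.21 ± 0.15 and an adjusted p of 0.485 in limma. Both hypomorph arrays were below both control arrays on it after centring. For 1421194_at the signals were 108 and 96.8 in hypomorphs and 61.2 and 82.9 in controls (log2 change 0.18, adjusted p 0.687), and for 1450155_at they were 68.9 and 38.3 in hypomorphs and 22.1 and 34.0 in controls (log2 change 0.52, adjusted p 0.406). The fifth probe set (1427615_at) was dim, at 12.9 and 13.2 in hypomorphs and 5.86 and 15.5 in controls, and was not tested. The Itga4 probe sets thus pointed in different directions, with no call on any. Itgb7 (1418741_at) had signals of 150 and 186 in hypomorphs and 163 and 165 in controls. After centring hypomorph replicate 1 stood alone below the other 3 arrays, and the log2 change was -0.30 ± 0.24 (SE, 95% confidence interval -0.82 to 0.22, adjusted p 0.513 in limma).

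**Figure D3:**
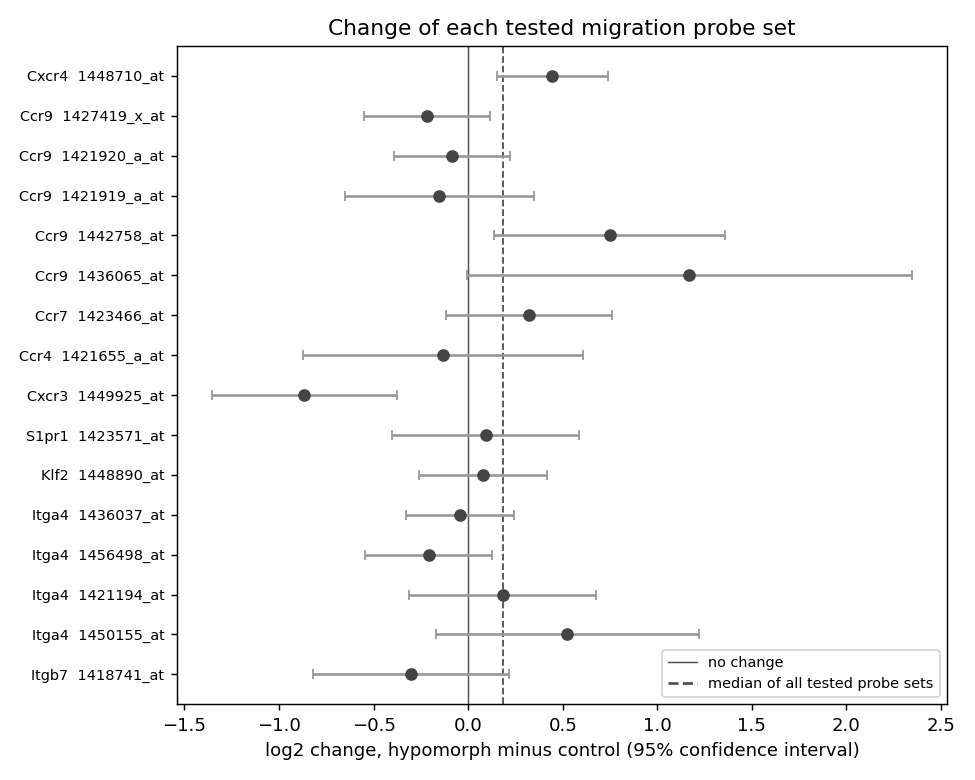
Log2 change, hypomorph minus control (horizontal axis), of the 16 tested probe sets of the migration genes, with bars for the 95% confidence interval, a solid line at no change and a dashed line at the median of all tested probe sets (0.18). The interval of Cxcr3 lay wholly below 0, those of Cxcr4 and the Ccr9 probe set 1442758_at wholly above 0, and the other 13 crossed 0.

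The receptors' relatives, ligands and signalling partners were also without a call in limma. For the counts below, 14.9% of all tested probe sets were higher and 1.19% lower at an unadjusted p under 0.05. Positions relative to the median of all tested probe sets were not adjusted for brightness. Of 18 other chemokine receptor genes, 9 were tested, 0 had an unadjusted p under 0.05 and 8 were below the median of all tested probe sets (median log2 change -0.14). The smallest p-values among them belonged to Cxcr5, which guides cells to B cell follicles (log2 change -0.55, adjusted p 0.393), Ccr2, a receptor of monocytes (-0.35, adjusted p 0.481), and Cx3cr1, the fractalkine receptor (-0.31, adjusted p 0.697). Of 8 tested ligand genes 1 was lower at an unadjusted p under 0.05 (median log2 change -0.11), namely Ccl17, a ligand of CCR4, with signals of 17.2 and 28.3 in hypomorphs and 33.3 and 39.9 in controls (log2 change -0.99, unadjusted p 0.0331, adjusted p 0.290 in limma). Fn1, the fibronectin gene, and Madcam1 had log2 changes of -0.48 (adjusted p 0.486) and 0.44 (adjusted p 0.556). Of 19 tested genes of other integrins and their activators, 1 was higher at an unadjusted p under 0.05 and 12 were below the median of all tested probe sets (median log2 change 0.15). That gene was Skap1, an adaptor in integrin activation (log2 change 0.42, adjusted p 0.25), and next came Apbb1ip, which encodes RIAM (0.42, adjusted p 0.326), and Tln1, which encodes talin (0.23, adjusted p 0.380). Of 25 tested genes of chemokine receptor signalling, 2 were higher at an unadjusted p under 0.05 and 13 were above the median of all tested probe sets (median log2 change 0.19). These were the small GTPase genes Rhoa (log2 change 0.37, adjusted p 0.287) and Cdc42 (0.31, adjusted p 0.306), followed by the receptor kinase gene Grk5 (0.56, adjusted p 0.338).

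Lists of cell type markers gave 0 calls in limma as well. Markers of double-positive thymocytes (9 tested, 3 above the median of all tested probe sets) had a median log2 change of 0.13, and those of mature single-positive thymocytes (10 tested, 4 above) had one of 0.095, both near the median of all tested probe sets. Markers of double-negative thymocytes had a median of -0.36 (7 tested, 1 above), but they did not all move in 1 direction. The 1 above was Kit, with a log2 change of 0.77 (unadjusted p 0.0364, adjusted p 0.291 in limma). It alone of the list had an unadjusted p under 0.05, where 14.9% of all tested probe sets were higher at that threshold. The other 6 were below the median of all tested probe sets. The lists for B cells (6 tested, median -0.45), dendritic cells (7 tested, -0.18) and macrophages (5 tested, -0.54) lay lower relative to all tested probe sets, with 1 gene of the B cell list and none of the others above the median of all tested probe sets. Most markers of B cells, macrophages and double-negative thymocytes were less bright than those of double-positive thymocytes. The reference median was itself lower once dim probe sets were included (0.099). Lists were not compared with genes of matched brightness, so the part of brightness in these positions was not tested. Summed centred B cell signals were 457 and 478 in hypomorphs and 576 and 699 in controls, and those of dendritic cells were 3339 and 3429 in hypomorphs and 4223 and 3795 in controls. These centred sums were lower in hypomorphs and did not overlap. Of single tested probe sets 50.8% did not overlap, and 7.04% did so with hypomorphs lower, but no such share was computed for sums of lists. The deposited sums overlapped. Without centring they were 586 and 443 in hypomorphs and 465 and 656 in controls for B cells, and 4364 and 3262 in hypomorphs and 3497 and 3614 in controls for dendritic cells. Most of each dendritic cell sum came from Cd74, H2-Aa, H2-Ab1 and H2-Eb1. The other tested dendritic cell markers, Itgax, Flt3 and Siglech, had log2 changes of 0.15, -0.17 and -0.18, and the groups overlapped on each after centring. Macrophage sums were 515 and 305 in hypomorphs and 568 and 487 in controls, with overlap. Granulocyte markers varied within the controls, with sums of 2212 and 3689 in hypomorphs and 662 and 5791 in controls. Thymic epithelium had 2 tested markers, endothelium and mesenchyme 1, and red cells 0. Some of these cells carry migration receptors too, and their part in the values of the 9 genes was not tested.

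**Figure D4:**
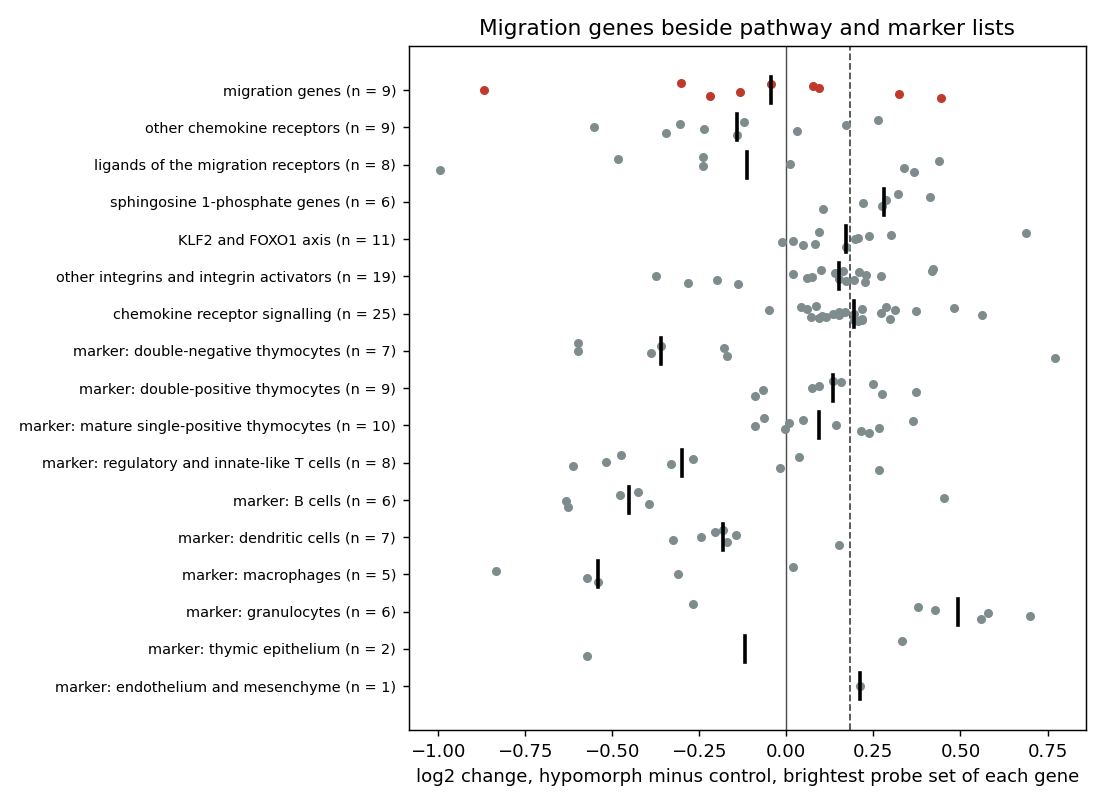
Log2 change, hypomorph minus control (horizontal axis), of each tested gene by its brightest probe set, for the migration genes (red) and for each pathway and marker list (grey), with list medians as black bars, a solid line at 0 and a dashed line at the median of all tested probe sets. The migration genes spread from -0.87 (Cxcr3) to 0.44 (Cxcr4), and the B cell, dendritic cell and macrophage markers lay mostly to the left of the dashed line.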

How the data were processed

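Total RNA of unsorted thymocytes was prepared with a Qiagen RNeasy kit and biotin-labelled for Affymetrix arrays, per the labels' protocols. The authors deposited a linear intensity for each probe set, computed in GCOS per the submitters' processing notes. The GCOS version, scaling and detection calls were not stated in the sources used here. Of 45101 probe sets, 64 array controls were left out. Symbols came from the platform annotation (34945 probe sets with 1 symbol, 932 with several, 9160 with none). Signals were taken to log2 after adding 2.29 (the 10th percentile), which understates changes of dim genes, and arrays were centred on a common median. The 22519 probe sets whose mean centred log2 signal reached the median over probe sets were tested with limma 3.58.1 in R 4.3.3 (two-sided, variance trend, Benjamini-Hochberg, threshold 0.05), without covariates. Groups were those of the labels, 2 arrays each, and the number of arrays limits the precision. The procedure was tested on simulated data.

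The 9 genes and the gene lists were chosen with earlier results of these data known. All probe sets of the 9 genes are named, and of each pathway list the called genes or else the 3 with the smallest p by the brightest probe set. Cd69, Il7r and Foxo1 are named beside S1pr1 and Klf2. From marker lists up to 2 bright markers could be named, and not all are. Kit is also named, as the 1 double-negative marker above the median of all tested probe sets. Alternatives changed the normalization, pseudocount, filter, variance model and arrays used, and added the replicate number as a block.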

Additional observations from a re-analysis of the deposited data

How the results depend on the processing

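Over the 16 tested probe sets of the 9 genes and the 13 alternatives, 203 values relative to the median of tested probe sets were obtained, of which 191 kept direction and side of the threshold, 9 changed direction and 3 became called. Centring on the tested probe sets, no centring, no variance trend and the replicate block leave relative values unchanged by construction. Under these only the side of the threshold could change, so their kept directions are no check. The filter at the 75th percentile left out Atg16l1, Cxcr3, Ccr4, S1pr1 and 2 Itga4 probe sets. The cause of the changes below was not tested, except where fewer arrays or more probe sets were tested by construction.

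The count of all probe sets called, 14 in limma, was 4 with quantile normalization, 7 with arrays centred on the tested probe sets, 84 without centring, 4 without the filter and 0 without the variance trend (2492 at an unadjusted p under 0.05). Leaving out 1 array gave 8 to 340, with 340 without hypomorph replicate 1, 58 without hypomorph replicate 2, 8 without control replicate 1 and 22 without control replicate 2. A lone array was then assumed to vary like the other group. Among the 9 genes the count of 0 called became 1 without centring (Ccr9 1436065_at, relative value 0.99, adjusted p 0.0204 in limma) and 0 to 2 with an array left out, both of Ccr9 and without hypomorph replicate 1 (relative values 1.06 and 2.15). Over the lists it was 0 to 2, with Pik3cg without hypomorph replicate 1 and S100a8 and S100a9 without control replicate 2. The log2 change of Atg16l1 was not called at -1.25 without centring (adjusted p 0.114), at -1.57 without the filter (0.0596) or the variance trend (0.274), and ranged from -1.66 to -1.48 with an array left out.

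Directions relative to the median turned for Itga4 1421194_at, whose relative value was only -0.00046 in the fit described above. It was 0.024 with quantile normalization, 0.0040 without a pseudocount, 0.083 without the filter, and -0.13 to 0.12 with an array left out. This probe set made up 5 of the 9 changes of direction. With an array left out directions also turned for S1pr1 (-0.20 to 0.016), Ccr9 1421919_a_at (-0.77 to 0.095), Ccr9 1436065_at (-0.19 to 2.15) and Ccr7 (-0.16 to 0.43). Their median relative to all tested probe sets lay between -0.27 and -0.076 over all 13 alternatives. Of the probe sets with an unadjusted p under 0.05, 92.6% were higher in hypomorphs with median centring, 45.6% after quantile normalization, 49.5% where the tested probe sets set the centre and 98.7% without centring.

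The labels do not say that replicate numbers pair the animals, and same-numbered arrays correlated at 0.0819 in their deviations from the group means over 22519 probe sets. The replicate number also splits the arrays by sex as read from Xist and Eif2s3y. With the replicate block 9 probe sets were called in place of 14, and 0 of the 9 genes.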
